A study of Mus musculus with 23 samples.

Results

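Of 41388 gene start windows in which captured methylated DNA was counted, 1072 belong to microRNA (miRNA) genes. They were taken as every window whose gene symbol begins with Mir followed by a digit or by let, so 9 of them are let-7 genes and 3 (Mir17hg, Mir22hg and Mir143hg) are host transcripts that carry miRNAs. The windows are 3 kb long and lie at annotated gene starts of mouse build GRCm38. Male C57Bl/6 mice, each in a cage of its own, gave heart (left ventricle) and spleen DNA. It was sonicated, enriched with MethylMiner, a kit in which a methyl-CpG binding protein holds methylated fragments back, and sequenced. The control group ate a diet without resistant starches, the high fibre group ate a diet rich in them, and the acetate group drank water with 100 mM magnesium acetate. The labels do not name the chow of the acetate group or the content of the minipumps that all groups received 3 weeks after feeding began. Heart had 4 control, 4 high fibre and 3 acetate libraries, and spleen had 4 libraries of each. The labels do not say that every library is a separate mouse, so a p-value here measures the spread between these libraries.

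A miRNA is cut from a hairpin in a longer primary transcript and represses messenger RNAs that pair with its seed, the stretch from base 2 to base 8. Many miRNA genes sit inside introns of protein-coding genes and are transcribed with them, and others lie in clusters that share 1 transcript. The annotated start of a miRNA gene is the start of its hairpin, which can be far from the promoter, so these windows mostly report on DNA around the hairpin and not on promoters. In heart muscle, miR-208a is carried by the alpha myosin heavy chain gene Myh6 and miR-499 by Myh7b, and both miRNAs are known for their part in the choice of myosin isoform. In blood cells, miR-146a damps Toll-like receptor signalling, miR-150 marks mature lymphocytes, and miR-223 marks granulocytes.

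The sequences of the miRNAs on which the results turn are given 5′ to 3′ from RefSeq (build GRCm38.p6), with the seed in capitals. The myosin-encoded miRNAs come first because their windows differed between heart and spleen or held no reads.
mmu-miR-208a-3p: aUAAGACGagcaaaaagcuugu
mmu-miR-208b-3p: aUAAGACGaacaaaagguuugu
mmu-miR-499-5p: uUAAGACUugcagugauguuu
The first 2 share their seed, and their genes lie on chromosome 14 in Myh6 (chr14:54949060-54949142) and in Myh7 (chr14:54975700-54975776). The next 3 stand for windows with more reads in heart than in spleen (Mir146 and Mir21a) or with the reverse order (Mir34a).
mmu-miR-146a-5p: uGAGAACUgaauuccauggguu
mmu-miR-21a-5p: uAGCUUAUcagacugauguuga
mmu-miR-34a-5p: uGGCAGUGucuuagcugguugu
The last 3 are shown because Mir130b and Mir6389 share a seed and differed in opposite directions between the tissues, and because Mir30a was the member higher on high fibre against both other diets in heart.
mmu-miR-130b-3p: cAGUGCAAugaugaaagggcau
mmu-miR-6389: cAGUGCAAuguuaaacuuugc
mmu-miR-30a-5p: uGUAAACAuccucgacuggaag
The kit binds methylated CG dinucleotides, so the hairpins of 4 members are given with each CG in capitals (RNA letters, as RefSeq lists them). Mir1905 and Mir7677 have 5 CG each. Mir1905 is shown as a window with far fewer reads in heart than in spleen. Mir7677 is shown as one with fewer reads on high fibre than on control in heart. Mir208a has 4, and Mir146 has 0.
Mir1905 hairpin: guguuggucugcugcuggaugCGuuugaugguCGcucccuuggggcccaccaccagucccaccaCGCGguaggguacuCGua
Mir7677 hairpin: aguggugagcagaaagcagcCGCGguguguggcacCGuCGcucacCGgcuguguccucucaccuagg
Mir208a hairpin: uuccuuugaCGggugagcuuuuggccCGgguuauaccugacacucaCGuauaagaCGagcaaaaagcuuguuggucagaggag
Mir146 hairpin: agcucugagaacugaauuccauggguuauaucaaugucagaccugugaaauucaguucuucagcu

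Total counts ran from 4.12 to 8.60 M reads in the 11 heart libraries and from 4.36 to 9.87 M reads in the 12 spleen libraries. The miRNA windows took 39463 to 68974 reads of a heart library and 31238 to 68370 of a spleen library. The Gm10800 window alone took 17.3% to 50.05% of heart counts and 48.2% to 61.2% of spleen counts, and this share differed between the heart groups. As a share of all counts, the miRNA windows held 0.790% ± 0.0897 (SD, n = 4) in control heart, 1.09% ± 0.0309 (n = 4) in high fibre heart and 0.926% ± 0.142 (n = 3) in acetate heart. Outside the 5 largest windows the order of control and high fibre was the other way round, at 1.52% ± 0.0356 and 1.402% ± 0.0237. In spleen (n = 4 each) the share of all counts was 0.670% ± 0.0513 for control, 0.674% ± 0.114 for high fibre and 0.740% ± 0.0767 for acetate, and the ranges overlap. All levels below are therefore given after TMM scaling, which sets the bulk of windows to the same level in each library.

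As a check on the tissue labels, gene start windows of cell type marker genes were compared on the control diet (adjusted p under 0.05, edgeR quasi-likelihood test). Of 8 heart muscle genes, 6 were lower in heart than in spleen and 2, Actc1 and Nppa, were higher. Of 8 blood cell genes, 5 were higher in heart and 1, Cd37, was lower, while Cd3e and Coro1a did not pass. Of 3 endothelial genes 1 was higher and 2 lower, and of 3 fibroblast genes 2 were higher and 1 lower. Of all windows 40.0% were higher and 32.7% lower. In whole tissue, a different mix of cell types and a different methylation within a cell type cannot be told apart.

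Many miRNA windows held no reads at all. In all 23 libraries, 343 of 1072 windows (32.0%) had a count of 0, against 3361 of 40316 other windows (8.34%). A total of 0 allows up to 3 reads per window over all libraries, by counting error alone. The 729 miRNA windows with reads had a median of 937 reads over the 23 libraries, close to the 1009 of other windows with reads. Whether a miRNA window held reads went with how near the next gene start lay (1069 members with a position in RefSeq, 1065 by symbol and 4 by an older name). Of 232 windows whose gene start lay within 500 bp of another gene start that also has a window, 178 (76.7%) had no reads. Of 484 windows with no such start within 10 kb, 40 (8.26%) had none. How the authors counted reads that fall in overlapping windows is not given in the sources used here, and its part in this was not tested.

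**Figure D1:**
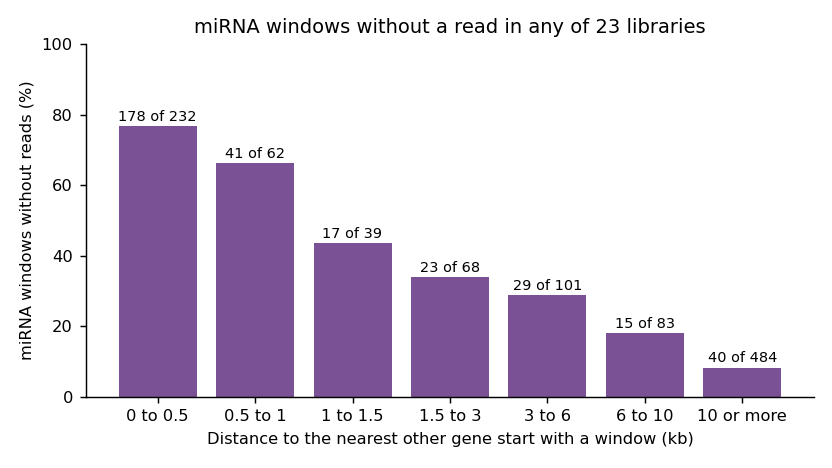
Share of miRNA windows without a read in any of 23 libraries (y axis, %), by the distance from the miRNA gene's start to the nearest other gene start with a window (x axis, kb), with the numbers of windows above the bars. The share is 76.7% within 0.5 kb and 8.26% at 10 kb or more.

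The windows without reads include whole clusters that are known in this field. The clusters were built by joining miRNA genes less than 10 kb apart. In the 11 clusters of 5 or more members, 152 of 174 windows (87.4%) had no reads, against 138 of 756 (18.3%) for miRNA genes that lie alone. The run inside Sfmbt2 on chromosome 2 (chr2:10466663-10518279), a rodent cluster known from the placenta, had reads in 1 of 71 windows. The windows listed for the imprinted Dlk1-Dio3 region on chromosome 12 had reads in 2 of 54, Mir379 and Mir345, of which Mir345 lies outside the imprinted clusters. All 7 windows of the Mir290a cluster (chr7:3218626-3220841), which encodes miRNAs of embryonic stem cells, were at 0. Of the 7 windows of the miR-17 to miR-92 cluster (chr14:115043671-115046728), known from proliferating lymphocytes, 5 were at 0, Mir17 among them. Single genes at 0 included Mir208b in Myh7, Mir126a in Egfl7, known from endothelium, and Mir451a, known from red cell precursors. For these genes the table gives no reading of methylation in either tissue.

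The CG content of the hairpin, known for 863 members, had no single order with the level. Over all of them the median total was 416 reads for hairpins without a CG, 565.5 with 1 CG, 296.5 with 2 and 11.5 with 3 or more, and the share of windows without reads was 20.1%, 21.2%, 31.2% and 43.2%. Among the 566 members whose nearest other start lay at 3 kb or more, the median total was 738 reads for the 200 hairpins without a CG, 1098 for the 167 with 1 CG, 1498 for the 97 with 2, and 1225 for the 102 with 3 or more. There the share without reads was 8.50%, 9.58%, 15.5% and 18.6%. These are descriptions of single windows, and windows are not replicates.

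The first comparison asked how heart and spleen differ at miRNA windows on the same diet. Heart and spleen differed at most of them, and the miRNA genes best known from heart muscle were split. On the control diet, 613 miRNA windows passed the filter on low counts. Of these, 215 were higher in heart and 246 lower (adjusted p under 0.05, edgeR quasi-likelihood test, adjusted over all 33982 windows tested). That is 75.2% of members, against 72.7% of all windows. The share higher was 35.1% against 40.0% of all windows, and the share lower was 40.1% against 32.7%. The median log2 fold change (heart over spleen) was -0.09 over the miRNA windows and 0.19 over all windows. The split depends on scaling: with library totals, which move the median of all windows to 1.03, 361 were higher and 60 lower, and with cyclic loess, which removes trends with abundance, 111 were higher and 202 lower. Of the calls, 77 higher and 60 lower were made under each of the 29 alternatives run.

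Among striated muscle miRNAs, 7 of the 10 in the table passed the filter. On the control diet 4 of them were lower in heart, 2 were higher and 1 did not pass. Over all windows 40.0% were higher and 32.7% lower, the shares to set beside every list below. These shares depended on abundance. In the lowest tercile of all windows 68.4% were higher and 4.41% lower, and in the highest tercile 9.13% and 68.4%. The lists were not matched for abundance. The Mir208a window, in Myh6, had 20.9, 17.7, 19.6 and 15.02 CPM (a library's count over its scaled total in M reads) in the 4 control hearts and 111, 56.7, 66.6 and 69.9 CPM in the 4 control spleens. Every heart library lay below every spleen library, also on the other diets. The fold between means was 4.16, and the log2 fold change was -2.03 ± 0.198 (SE, adjusted p = 1.5e-10). It was -2.22 ± 0.200 on high fibre and -1.97 ± 0.223 on acetate, comparisons that share no library with each other. The start window of Myh6 itself, 17465 bp from the start of Mir208a, was lower in heart as well, at -1.71 on the log2 scale (adjusted p = 1.9e-10).

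The Mir499 window (chr2:155622880-155622958, in Myh7b) had 24.1 to 30.04 CPM in control heart and 47.4 to 90.4 CPM in control spleen. Its log2 fold change was -1.25 ± 0.181 (adjusted p = 2.5e-07), beside -1.38 for the start window of Myh7b. Mir1a-1 (chr2:180389048-180389124), a gene of miR-1, which is abundant in heart muscle, had 6.83 ± 1.09 CPM in heart and 19.0 ± 6.97 in spleen (SD, n = 4 each), a log2 fold change of -1.40 ± 0.206. Mir133a-2, 9331 bp away in the same host transcript, had 8.45 ± 1.93 and 8.23 ± 2.14 CPM, and its log2 fold change of 0.02 ± 0.193 did not pass. Mir486, in the erythroid and muscle ankyrin gene Ank1, was 4.55-fold lower in heart (10.2 ± 2.00 against 46.3 ± 10.5 CPM, log2 fold change -2.15 ± 0.182).

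Mir133a-1 and Mir133b went the other way, at low counts. Mir133a-1 had 22, 22, 13 and 15 reads in the control hearts and 1, 1, 2 and 0 in the control spleens, and its log2 fold change was 2.34 (adjusted p = 2.2e-05). Mir133b had 2.06 ± 0.246 CPM in heart and 0.356 ± 0.540 in spleen (log2 fold change 1.77, adjusted p = 0.0024), and it did not pass with cyclic loess.

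The blood cell miRNAs that could be tested were higher in heart or did not pass. Of 35 in the table, 15 had no reads and 10 passed the filter. Of these 10, 6 were higher in heart on the control diet and 0 lower, with a median log2 fold change of 0.96. Run on each tissue alone, the filter passed 7 in heart and 5 in spleen, so a member can enter through the tissue where it is high. The direction of the tested members is therefore not independent of the filter. The Mir146 window (chr11:43374397-43374461), which encodes miR-146a and lies between genes, had 12.9, 10.06, 13.4 and 9.85 CPM in control heart and 0.699, 2.96, 0.652 and 0.860 CPM in control spleen. The lowest heart library was above the highest spleen library, and the log2 fold change was 2.80 ± 0.305 (adjusted p = 3.8e-10). On high fibre and acetate it was 1.95 ± 0.293 and 1.81 ± 0.310. Mir150 had 86 reads in the 4 control hearts and 6 in the 4 control spleens (log2 fold change 2.32 ± 0.603, adjusted p = 2.5e-05), and with cyclic loess it did not pass. Mir342, in Evl, was 1.51-fold higher in heart (0.57 ± 0.179, adjusted p = 0.0044), with control ranges that overlap. Mir155, induced in activated lymphocytes, had 2.18 ± 0.988 CPM in heart and 3.11 ± 0.818 in spleen and did not pass (adjusted p = 0.24). Mir223 had 15 reads in the control hearts and 2 in the control spleens (adjusted p = 0.054).

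**Figure D2:**
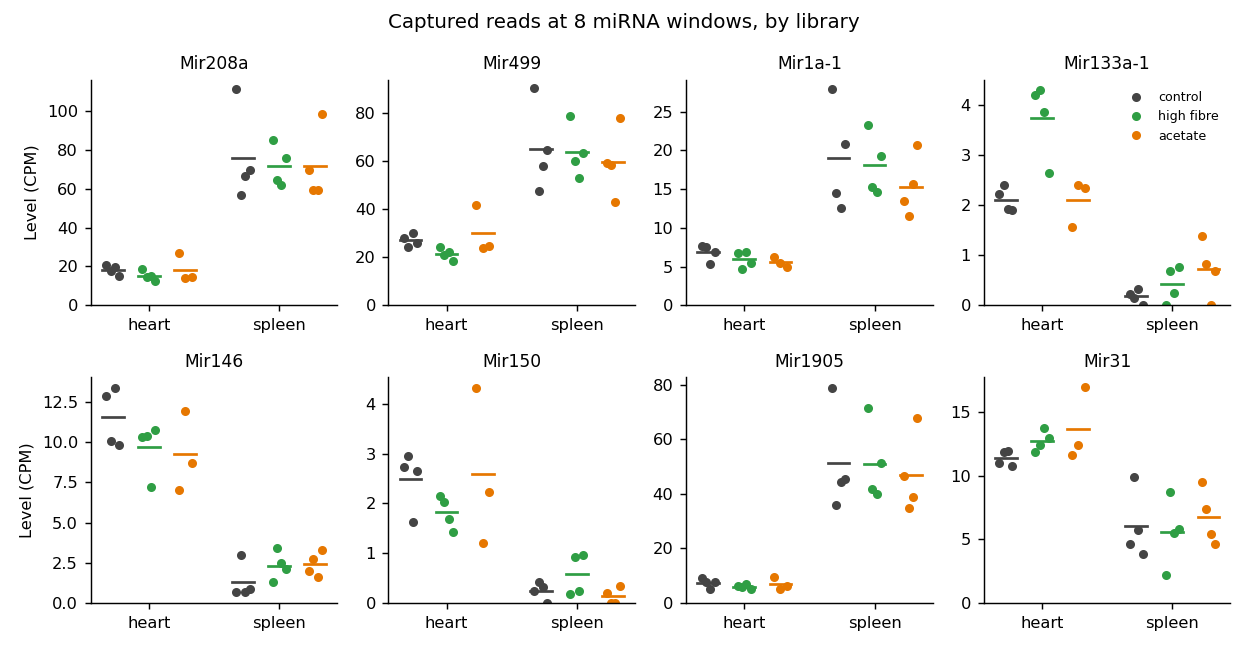
Captured reads (y axis, CPM, scaled over both tissues, linear from 0) at 8 miRNA windows in each library of heart and spleen. Points are libraries, coloured by diet, and lines are group means. Mir208a, Mir499, Mir1a-1 and Mir1905 are lower in every heart library than in every spleen library, and Mir146 is higher. With library totals the Mir499 difference on high fibre turned to 0.02.

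Among the miRNAs known from cardiac stress and fibrosis, 9 of 37 were tested, and 3 were higher and 3 lower in heart on the control diet. Mir21a, in Vmp1, had 4.28 ± 1.12 CPM in heart and 1.07 ± 0.640 in spleen (log2 fold change 1.68 ± 0.405, adjusted p = 0.00011), and with cyclic loess it did not pass. Mir214, in the Dnm3os transcript, was 3.15-fold higher in heart. Mir34a, a target of p53, had 34.4 ± 5.52 CPM in heart and 70.1 ± 5.62 in spleen (log2 fold change -1.02 ± 0.146, adjusted p = 2.3e-07). Mir199a-1, in Dnm2, was 2.81-fold lower in heart. Of the endothelial and smooth muscle list, 6 were tested, with 2 higher and 3 lower: Mir143hg, the host transcript of miR-143 and miR-145 of smooth muscle, was 2.03-fold lower in heart.

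The other lists were thinly covered. On the control diet, of 6 let-7 genes tested 3 were higher in heart and 1 lower. Of 9 neural miRNAs 2 were higher and 5 lower, with a median log2 fold change of -0.51. Of 9 tested windows of the list named for Sfmbt2, which holds 81, 6 were higher and 1 lower (median 0.79). The run inside Sfmbt2 had reads in 1 of its 71 windows, so most of these tested members lie outside it. Epithelial, liver and pancreas miRNAs had 3 higher and 2 lower of 8. Of the 3 tested members listed for imprinted loci outside chromosome 12, 1 was higher, Mir5113, which lies in Tnrc6b. Of 2 early embryo members 1 was higher, and of 3 in the Hox clusters 1 was lower. In the chromosome 12 list 1 of 2 was lower, Mir345, which lies outside the imprinted clusters. None of the 16 windows of the miR-17 family clusters passed the filter, and 13 of them had no reads.

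By size of change among windows above the median abundance, the windows lowest in heart against spleen on the control diet were Mir1905, Mir130b, Mir486, Mir1192, Mir6391, Mir219a-2, Mir208a, Mir26a-1, Mir5620 and Mir7018. Mir1905 (chr3:88536301-88536382, in Mex3a) had 9.17, 7.77, 5.15 and 7.57 CPM in the control hearts and 79.0, 36.04, 44.3 and 45.4 CPM in the control spleens. That is a 6.90-fold difference of means with no overlap (log2 fold change -2.72 ± 0.228, adjusted p = 6.6e-12). The start window of its host Mex3a, 4436 bp away, was higher in heart, at 1.62 (adjusted p = 0.00050). Mir130b had 3.68 ± 0.825 CPM in heart and 20.9 ± 9.83 in spleen (-2.41 ± 0.280). Mir219a-2, known from oligodendrocytes, had 19.8 ± 1.99 and 85.0 ± 30.9 CPM (-2.08 ± 0.208). Mir26a-1, in Ctdspl, had 7.36 ± 0.535 and 30.05 ± 5.29 CPM (-1.98 ± 0.175).

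The windows highest in heart by the same rule were Mir6358, Mir5618, Mir670, Mir6410, Mir6368, Mir1962, Mir3075, Mir31, Mir3066 and Mir697. They were higher by 0.79 to 1.46 on the log2 scale. The rule leaves out windows below the median abundance, and some of those changed more, such as Mir146 and Mir150 (given above). Mir670 had 11.8 ± 1.46 CPM in control heart and 5.03 ± 0.952 in control spleen, and Mir31 had 11.4 ± 0.597 and 6.02 ± 2.66. Higher calls lay mainly at low abundance and lower calls at high abundance, as they did for all windows. In the lowest tercile of abundance of all windows, 132 of 205 miRNA windows were higher in heart and 16 lower (all windows 68.4% and 4.41%). In the highest tercile 7 of 228 were higher and 184 lower (all windows 9.13% and 68.4%).

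On high fibre 229 miRNA windows were higher in heart and 282 lower, which is 83.4% of the 613 against 80.7% of all windows (37.4% against 45.1% higher, 46.0% against 35.6% lower). On acetate 183 were higher and 226 lower, 66.7% against 63.0% of all windows (29.9% against 34.0% higher, 36.9% against 29.0% lower). With library totals the split was 460 higher and 37 lower on high fibre and 379 and 41 on acetate, and with cyclic loess it was 109 and 240 and 90 and 180. In all 3 comparisons 154 miRNA windows were called higher in heart and 216 lower, 60.4% of those tested against 56.5% of all windows. Just 1 was called in opposite directions on different diets.

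**Figure D3:**
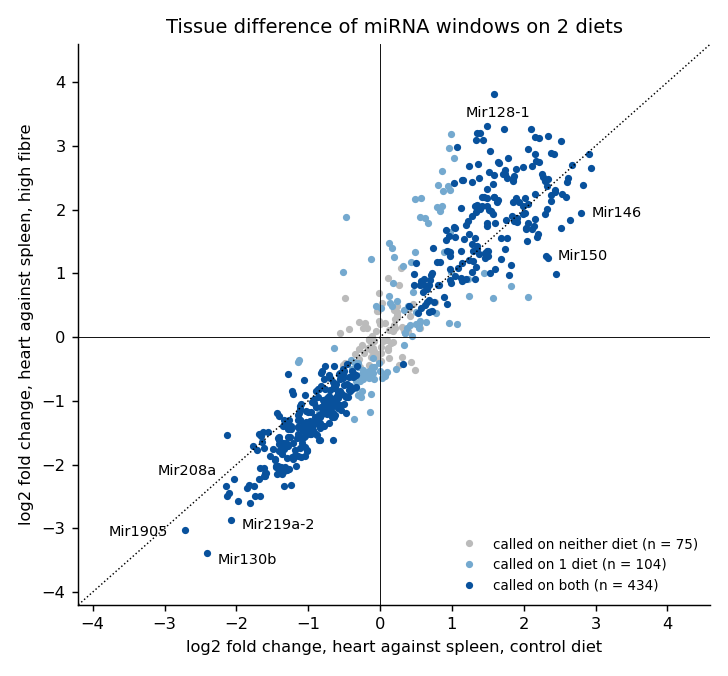
Log2 fold change of heart against spleen for 613 miRNA windows on the control diet (x axis) and on high fibre (y axis), from different libraries. The dotted line marks equal values. Of the 434 windows called on both diets, 433 have the same direction.

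Members of 2 seed groups did not share a direction. Of 11 genes with a mature sequence of the let-7 seed, 7 were tested on the control diet, with 3 higher in heart and 2 lower. Mirlet7c-2 had 18 reads in the control hearts and 55 in the control spleens (-1.77, adjusted p = 0.00029), and Mir7k was at 1.90 (adjusted p = 9.8e-05). Mirlet7a-2, of which RefSeq here lists the other arm, had 7.74 ± 1.63 CPM in heart and 2.18 ± 0.926 in spleen (1.64 ± 0.320). In the seed group of Mir130b, 5 of 6 genes were tested, and they ran from -2.41 for Mir130b to 1.65 for Mir6389 (adjusted p = 0.00091). Of the seed group of Mir344, 5 of 7 genes were tested, 3 were higher in heart and 0 lower, and values ran from 0.86 for Mir344c to 1.45 for Mir344.

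Windows inside another gene and windows between genes differed in their split. Of 490 tested windows inside a gene, 156 were higher in heart and 213 lower on the control diet, with a median log2 fold change of -0.16. Of 120 between genes, 58 were higher and 31 lower, with a median of 0.49. Their abundance differed too, with medians of 3.22 and 2.21 log2 CPM, and its part was not tested. For 291 miRNA windows at least 3 kb from the start of the single host gene that has a window, Pearson's r across windows between the 2 log2 fold changes was 0.242 and Spearman's rho 0.269. Where both windows were called, 103 of 162 pairs had the same direction. These pairs share libraries and depth, and windows are not independent replicates. Hairpins with a CG leaned to spleen, without a steady order. Among windows with the nearest start at 3 kb or more, the median log2 fold change was 0.18 for 171 without a CG. It was -0.28 for 139 with 1 CG, -0.18 for 82 with 2 and -0.64 for 70 with 3 or more. Median reads differed between these groups as well, and the part of abundance was not tested.

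The second comparison asked whether the diets changed capture at miRNA windows in heart. High fibre did, and most called miRNA windows were lower. Of 603 miRNA windows tested, 63 were higher on high fibre than on control and 130 lower, 32.0% of members against 26.2% of all 33562 windows. The share higher was 10.4% against 12.6% of all windows, and the share lower was 21.6% against 13.6%. The median log2 fold change was -0.13 over the miRNA windows and 0.02 over all windows. The lower calls rest on the scaling. With library totals, which move the median of all windows to 0.69, 346 miRNA windows were higher and 0 lower, and with cyclic loess 26 were higher and 104 lower. The Gm10800 window made up 19.05% ± 1.70 of a high fibre library and 42.3% ± 5.80 of a control library (n = 4 each), and its part in the result was not tested.

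The counts also depended on single libraries. For counts of calls under alternatives, here and elsewhere, the share over all windows is not given. They therefore do not show whether miRNA windows moved differently from other windows. Without control library 1 or without high fibre library 4, 65 miRNA windows were called. Without control library 3 it was 116, without high fibre library 3 it was 125, and without acetate library 1, which enters through the shared estimate of spread, it was 297. Under all 17 alternatives, 11 members were called higher: Mir30a, Mir488, Mir6411, Mir719, Mir28a, Mir7224, Mir6379, Mir6370, Mir6389, Mir344c and Mir344i. None was called lower under all 17, and 35 were under the 16 other than library totals. The high fibre and control libraries did not overlap in 52 of the 63 higher windows and in 121 of the 130 lower ones, which is 82.5% and 93.1%, beside 86.4% and 89.9% for all called windows.

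The 5 members higher with the smallest p were Mir488, Mir6370, Mir30a, Mir6389 and Mir344c. Mir30a (chr1:23272269-23272339), of a family known in heart for restraining connective tissue growth factor, had 7.83, 9.06, 11.3 and 12.8 CPM on high fibre and 2.59, 5.79, 2.44 and 3.63 CPM on control. The lowest high fibre heart lay above the highest control heart, and the log2 fold change was 1.41 ± 0.290 (adjusted p = 0.0052). Mir488 (chr1:158505625-158505733, in the neuronal gene Astn1) had 12.9, 12.5, 11.4 and 15.5 CPM on high fibre and 6.39, 6.45, 7.11 and 8.02 on control, again without overlap (0.88 ± 0.174, adjusted p = 0.0052). Mir6389, in Gabra5, rose by 1.29 ± 0.270, Mir6370 by 1.43 ± 0.295 and Mir344c by 1.43 ± 0.334.

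The 5 lower members with the smallest p were Mir6960, Mir7677, Mir8117, Mir7037 and Mir34a. Mir6960 (chr15:99080805-99080865, in Troap) had 23.5, 28.2, 21.3 and 21.2 CPM on high fibre and 42.3, 44.1, 45.5 and 43.4 on control (log2 fold change -0.89 ± 0.143, adjusted p = 0.0027). Mir7677 (chr17:27091245-27091311, in the calcium channel gene Itpr3) had 33.9, 30.8, 30.8 and 23.9 CPM on high fibre and 66.1, 55.04, 72.0 and 50.4 on control (-1.02 ± 0.176, adjusted p = 0.0038). In both windows the groups were well apart. Mir34a (chr4:150068454-150068555) had 30.6 ± 5.71 CPM on high fibre and 52.0 ± 8.29 on control (-0.76 ± 0.150, adjusted p = 0.0052). Mir7037, in Ints1, fell by 0.85 and Mir8117 by 0.84 on the log2 scale. With library totals these 5 stayed below 0, between -0.06 and -0.31, and did not pass.

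**Figure D4:**
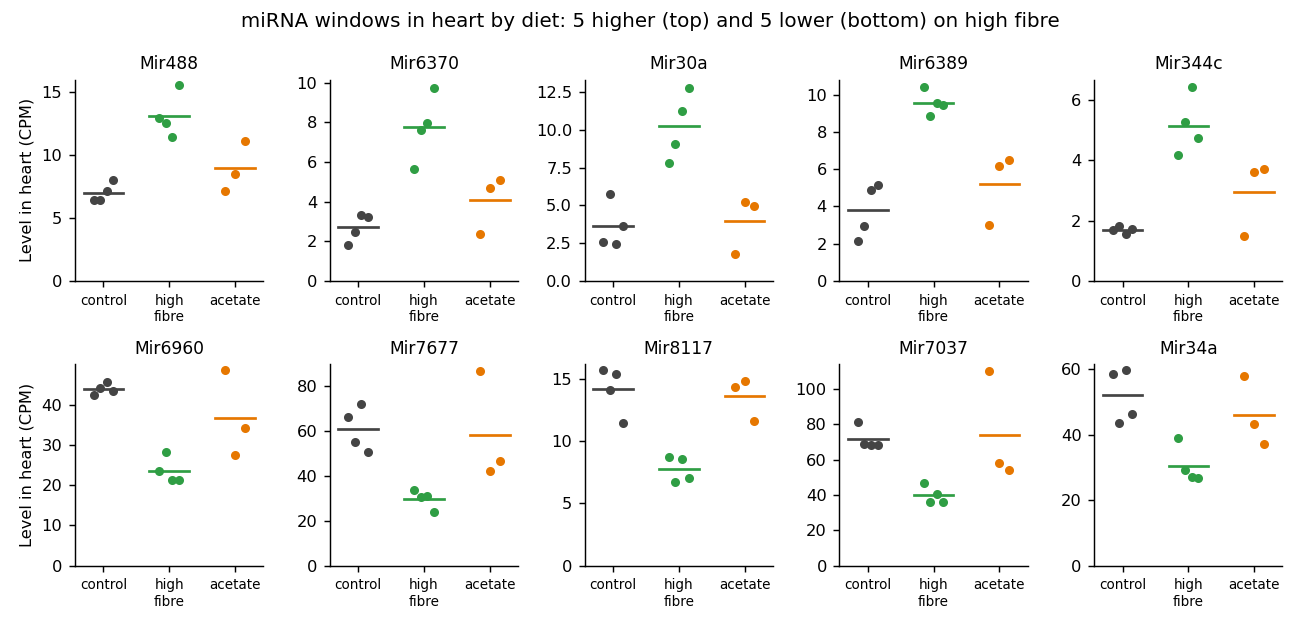
Captured reads in heart (y axis, CPM, scaled within heart, linear from 0) at the 5 higher and 5 lower members named for high fibre against control, by diet. Points are libraries and lines are group means. In all 10 panels the 4 high fibre libraries do not overlap the 4 control libraries. The 10 were picked by the smallest p in this same comparison. Of all windows called higher 86.4% do not overlap either, and of all called lower 89.9%. With library totals none of the lower 5 passed.

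Few members of each gene list could be tested on high fibre, beside the 26.2% of all windows that were called. Of 7 tested striated muscle miRNAs, Mir133a-1 was higher (5.69 ± 1.15 against 3.18 ± 0.374 CPM, log2 fold change 0.75, adjusted p = 0.037) and 0 were lower. Mir133a-1 did not pass with cyclic loess, and neither did Mir223. Mir208a had 18.6 to 28.4 CPM on high fibre and 22.7 to 31.5 on control, ranges that overlap. Of 7 blood cell miRNAs, 2 were higher (Mir125b-2 and Mir223) and Mir326 was lower, at -0.45 (adjusted p = 0.021). Mir223 rested on 48 reads in the high fibre hearts and 15 in the control hearts. Of 5 let-7 genes, Mirlet7i (0.77 ± 0.203) and Mirlet7a-2 (0.48 ± 0.143) were higher. Of the cardiac stress list, Mir30a was higher, and Mir34a and Mir199a-1 were lower, of 9 tested. Of 9 neural miRNAs, Mir9-3 was higher (1.21), and Mir219a-2 (-0.78) and Mir7-2 (-0.51) were lower on the log2 scale. Of 8 epithelial, liver and pancreas miRNAs, Mir217 was higher (0.86) and Mir182 lower (-0.52). None passed of 6 endothelial and smooth muscle, 3 Hox and 2 early embryo members. The same held for 2 members of the chromosome 12 list and 9 of the Sfmbt2 list, most of them outside the run in Sfmbt2. Both tested members listed for imprinted loci outside chromosome 12 fell on the log2 scale. Mir296, at the Gnas locus, fell by 0.98, and Mir5113, which lies in Tnrc6b, fell by 0.35.

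As in the tissue comparison, the direction followed abundance. In the highest tercile of abundance of all windows, 106 of 219 miRNA windows were lower and 0 higher, with a median log2 fold change of -0.37, and all windows there had 32.5% lower, 4.42% higher and a median of -0.23. In the lowest tercile 43 of 208 miRNA windows were higher and 2 lower (all windows 23.8% and 0.965%), with medians of 0.34 and 0.45. Of 481 miRNA windows inside another gene, 42 were higher and 117 lower, and of 119 between genes, 21 were higher and 12 lower. Median abundances were 3.84 and 3.157 log2 CPM, and their part was not tested. Across 288 pairs of a miRNA window and its host gene's start window, Pearson's r between the log2 fold changes was 0.524 and Spearman's rho 0.579. Both windows were called in 37 pairs, 36 of them in the same direction. These pairs too share libraries and depth, and windows are not independent replicates. Pairs of unrelated windows were not compared, and the part of abundance was not tested.

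**Figure D5:**
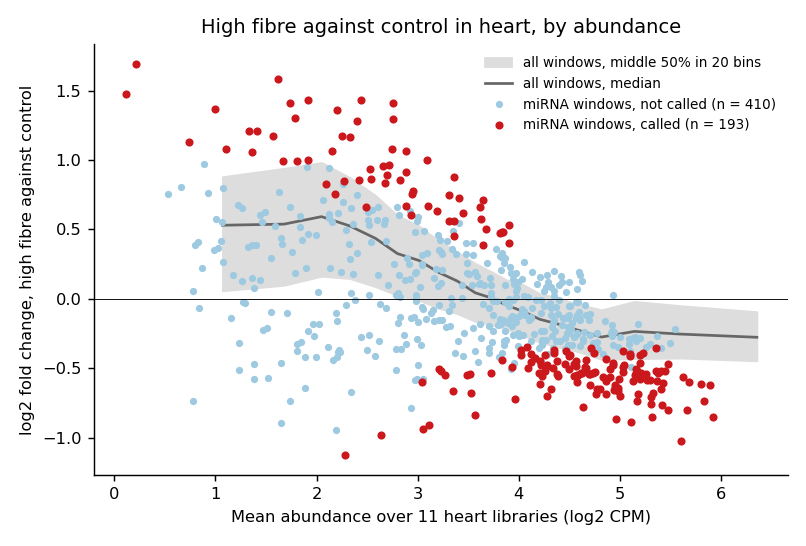
Log2 fold change of high fibre against control in heart (y axis) against mean abundance (x axis, log2 CPM) for 603 miRNA windows, with the median and middle 50% of all windows in 20 bins of abundance. Called members lie above 0 at low abundance and below 0 at high abundance, where the median of all windows also falls below 0. With library totals no member was called lower.

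Acetate gave no such calls against control in heart: 0 of 603 miRNA windows and 0% of all windows passed. An unadjusted p under 0.05 was found for 17 miRNA windows, beside 840 of all 33562 windows. Without acetate library 1, 12 miRNA windows were called. By DESeq2, 0 were called. The smallest p-values belonged to Mir7028 (14.5 ± 5.94 CPM in 3 acetate hearts against 19.7 ± 2.23 in 4 control hearts) and to Mir7221 (8.89 ± 1.37 and 5.92 ± 0.908 CPM), both with an adjusted p of 0.9997.

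High fibre against acetate in heart gave 1 higher and 22 lower miRNA windows, 3.81% of 603 against 1.38% of all windows (0.166% against 0.188% higher, 3.65% against 1.19% lower). Mir30a was the higher one, with 1.79, 5.24 and 4.95 CPM in the acetate hearts, all below the high fibre hearts (1.23 ± 0.316, adjusted p = 0.0497). Mir7677 had 86.4, 42.0 and 46.7 CPM in the acetate hearts, against 23.9 to 33.9 on high fibre (-0.95 ± 0.191, adjusted p = 0.0488). Acetate library 1 was the highest of the 3 there and in Mir7037, Mir7023 and Mir7049, the other lower members named first. Every adjusted p here was just under 0.05, and with DESeq2's size factors in edgeR 0 miRNA windows were called. With library totals 23 were higher and 0 lower, with DESeq2 71 were called, and with no filter on low counts 47. Calls numbered 0 as well without any 1 of control libraries 2, 3 and 4 or without any 1 of the 4 high fibre libraries, 6 without acetate library 1, 92 without acetate library 2 and 123 without acetate library 3. This comparison and the one with control share the high fibre libraries.

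In spleen no diet gave a call. Of 456 miRNA windows tested, 0 passed for high fibre against control, acetate against control and high fibre against acetate, against 0% of all 24871 windows each. Unadjusted p-values under 0.05 numbered 12, 15 and 16, beside 502, 872 and 823 over all windows, and DESeq2 gave 0 calls in each. The smallest p was that of Mir5112 for acetate against control (13.6 ± 1.04 against 19.7 ± 1.86 CPM, n = 4 each). By edgeR its adjusted p was 0.9995. The 130 members that fell in heart on high fibre were all tested in spleen, and 76 of them (58.5%) were below 0 there, with a median log2 fold change of -0.02. For all windows that fell in heart it was 54.2%. Of the 63 that rose in heart, 15 were tested in spleen, and 12 (80.0%) were above 0 (median 0.09). For all windows that rose in heart, 780 of the 1533 tested in spleen (50.9%) were above 0, with a median of 0.0052. The 15 members are few, and the difference in share was not tested.

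The difference between tissues in the diet effect was tested directly. For high fibre 0 of 613 miRNA windows passed, against 0.0559% of all windows. An unadjusted p under 0.05 was found for 125 of them, beside 5571 of all 33982 windows. DESeq2 called 1, cyclic loess 2 and library totals 75, all 75 of them higher. The members with the smallest p were Mir365-2 (-0.74 ± 0.184, adjusted p = 0.096), Mir6958 (-0.96 ± 0.244, adjusted p = 0.10) and, in the other direction, Mir6411 (2.22 ± 0.817, adjusted p = 0.12). Mir6411 had few reads in spleen, and its SE belongs to the value without the prior count (next section). Mir7677, which fell by 1.02 in heart, was at 0.07 in spleen, and its difference of -1.09 ± 0.285 did not pass (adjusted p = 0.12). Without spleen control library 1, 23 miRNA windows passed, and without heart acetate library 1, 7 did. For acetate 0 passed, against 0% of all windows, and 0 by DESeq2. An unadjusted p under 0.05 was found for 30 miRNA windows, beside 1553 of all windows. By edgeR with TMM scaling and no block, the high fibre effect on miRNA windows was not shown to differ between the tissues. That count changes with the scaling and with the library left out. It also changes with a block by library number, which gave calls (last section), and the labels do not state that these numbers pair samples.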

How the data were processed

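The deposited values are counts: per the file headers and the labels, raw reads of each library in windows of 3 kb at gene starts, in 1 table per tissue. Per the submitters' processing notes, the tools were edgeR 3.16.5, featureCounts 1.5.1, BWA 0.7.10 and bcl2fastq 2.19.1.403, and the build was GRCm38. How windows are centred and how reads in several windows, repeated alignments or duplicates were counted is not given in the sources used here. Without an input library, the values rank windows between libraries only and are no methylation level.

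Counts were tested with the quasi-likelihood test of edgeR 4.0.16 (R 4.3.3) with TMM scaling and filterByExpr at a minimum count of 10, fitted on all windows with Benjamini-Hochberg adjustment at 5%. The prior count for log2 fold changes was 2, which shrinks the printed values at low counts. Each SE was taken from the log2 fold change without this prior count. For windows with few reads, the SE is therefore not that of the printed value, and the pair gives no interval. Each tissue's 3 diets were fitted together, and tissue comparisons used 1 fit over all 23 libraries, so CPM differ between those sections. The fits were checked on simulated counts.

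Members, lists and tests were chosen with earlier results of these data known. Named members are a set of well-known miRNAs, then for each diet comparison and each test of the difference between tissues the 5 called members per direction with the smallest p (3 where none was called), for heart against spleen the 10 per direction with the largest change above the median abundance, and up to 4 called members of each of 13 lists. Mir7k, Mir6389 in the tissue comparison, and members called under all alternatives were picked after their values were seen. Positions came from RefSeq (GRCm38.p6); 3 members matched no entry. Alternatives were other scalings, DESeq2 1.42.0, limma 3.58.1 (cyclic loess), no filter, replicate blocks, and leaving out each library. The labels do not state that library numbers pair samples. Correlations of same-numbered libraries' deviations ran from -0.07 to 0.60 in heart, -0.12 to 0.52 in spleen and -0.07 to 0.39 between tissues, so not every pair was over 0.1 and no block was used in the reported values.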

Additional observations from a re-analysis of the deposited data

Results flagged for a closer look

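In groups of 4 libraries, a library was noted where its gap to the nearest other made up most of the group's range (Dixon's test at 95%). Of 553 groups tested over the named members, 37 had such a library, and chance gives about 1 in 20. Values are CPM scaled within the tissue, for 1 library against the range of the other 3.

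On the control diet in heart, 6 members stood out. Mir7037 in library 1 had 81.43, above the 68.37 to 68.75 and Mir182 in library 1 had 24.81, above the 18.84 to 19.33 of the others. Mir6401 in library 1 had 18.87, above the 13.94 to 14.54 and Mir145b in library 1 had 11.26, below the 13.72 to 14.0 of the others. Mir100 in library 2 had 15.7, above the 11.11 to 11.65 and Mir103-2 in library 1 had 5.936, below the 7.83 to 8 of the others.

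On the high fibre diet in heart, 7 members stood out. Mir7221 in library 3 had 5.708, below the 5.977 to 6.023 and Mir6368 in library 2 had 17.21, below the 23.3 to 24.54 of the others. Mir146 in library 3 had 10.99, below the 15.65 to 16.35 and Mir143 in library 1 had 3.64, above the 1.855 to 2.151 of the others. Mir122a in library 3 had 24.69, above the 19.02 to 19.48 and Mir216b in library 4 had 8.604, above the 6.158 to 6.564 of the others. Mir218-2 in library 3 had 22.69, above the 19.74 to 20.2 of the others.

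On the control diet in spleen, 11 members stood out. Mir199a-1 in library 1 had 24.21, above the 17.98 to 18.41 and Mir219a-2 in library 1 had 84.37, above the 43.6 to 50.34 of the others. Mir9-3 in library 4 had 1.931, above the 0.4416 to 0.6016 and Mir5616 in library 1 had 10.38, below the 15.01 to 15.36 of the others. Mir6380 in library 3 had 0.7728, below the 1.504 to 1.634 and Mir6401 in library 1 had 5.865, below the 9.154 to 9.826 of the others. Mir5620 in library 1 had 18.2, above the 12.4 to 13.37 and Mir146 in library 2 had 2.067, above the 0.4416 to 0.5942 of the others. Mir466j in library 3 had 7.618, below the 8.76 to 8.913 and Mir3057 in library 1 had 99.86, above the 54.63 to 61.94 of the others. Mir3095 in library 2 had 6.792, above the 4.308 to 4.662 of the others.

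On the high fibre diet in spleen, 4 members stood out. Mir326 in library 3 had 6.955, below the 11.31 to 12.06 and Mirlet7a-2 in library 3 had 3.567, above the 0.9074 to 1.115 of the others. Mir670 in library 3 had 4.815, above the 2.852 to 3.098 and Mir466f-4 in library 4 had 20.74, above the 16.92 to 17.52 of the others.

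On the acetate water in spleen, 9 members stood out. Mir7037 in library 4 had 99.17, above the 62.38 to 68.64 and Mir219a-2 in library 4 had 75.02, above the 52.19 to 55.86 of the others. Mir7224 in library 1 had 0.5469, below the 0.7732 to 0.8154 and Mir26a-1 in library 3 had 20.3, above the 17.92 to 18.32 of the others. Mir214 in library 2 had 3.466, above the 1.558 to 1.74 and Mir8120 in library 3 had 8.312, above the 5.3 to 5.565 of the others. Mir6363 in library 4 had 3.005, below the 5.096 to 5.469 and Mir719 in library 3 had 2.513, above the 0.5469 to 0.8154 of the others. Mir103-2 in library 4 had 0.6678, below the 1.353 to 1.427 of the others.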

How the results depend on the processing

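Counts of calls changed with the scaling, with the library left out and with the tool. They are given for miRNA windows only, without the share over all windows. For high fibre against control in heart, 346 miRNA windows were called with library totals, and leaving out 1 library gave 65 to 297. For acetate against control in heart, leaving out 1 library gave 0 to 12. For high fibre against acetate in heart, calls numbered 0 with DESeq2's size factors in edgeR, 13 with cyclic loess, 71 with DESeq2, 47 with no filter on low counts and 81 with the replicate block, and leaving out 1 library gave 0 to 123. Heart against spleen on acetate gave 270 with cyclic loess. The tissue difference in the high fibre effect gave 75 with library totals, 2 with cyclic loess, 1 with DESeq2, 35 with the replicate block and 0 to 23 leaving out 1 library. Calls of the other comparisons stayed within 1.5 times under the alternatives run. The cause was not tested. The labels do not state that library numbers pair samples, and whether they do is not settled by the data: 8 of 20 heart, 9 of 24 spleen and 9 of 22 between-tissue libraries were closest to their own number. Outside the 5 largest windows, the miRNA share of counts was 1.52%, 1.402% and 1.51% in control, high fibre and acetate heart and 1.77%, 1.77% and 1.75% in spleen.

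Some single members changed direction, given as log2 fold changes. With library totals, high fibre against control in heart was 0.25 for Mir326, 0.19 for Mir199a-1, 0.17 for Mir182, 0.19 for Mir7-2, 0.32 for Mir5113, 0.62 for Mir133a-2, 0.44 for Mir208a, 0.38 for Mir499 and 0.46 for Mir146. Heart against spleen on control became 0.061 for Mir143, 0.080 for Mir122a, 0.061 for Mir7-2, 0.13 for Mir345, 0.25 for Mir466f-4 and 0.087 for Mir10a. On high fibre it became 0.016 for Mir499, 0.16 for Mir143hg, 0.38 for Mir143, 0.90 for Mir182, 0.13 for Mir218-2, 0.23 for Mir7-2, 0.60 for Mir345, 0.67 for Mir296, 0.78 for Mir466f-4, 0.39 for Mir10a, 1.01 for Mir155 and 1.03 for Mir122a. On acetate it became 0.079 for Mir218-2, 0.18 for Mir7-2, 0.22 for Mir128-2, 0.11 for Mir296 and 0.65 for Mir122a. With cyclic loess, heart against spleen became -1.12 for Mir379 on control and -0.035 for Mir145a on acetate. On high fibre it became -0.30 for Mirlet7g, -1.11 for Mirlet7d, -0.74 for Mir150, -0.35 for Mir21a, -1.23 for Mir145a, 0.12 for Mir122a and -1.45 for Mir379.

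Depth limits the windows with few reads, where a fold change rests on single reads in spleen. Counting error alone is covered by the limit for a count of 0.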
